A study of Mus musculus with 12 samples.

Results

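The genes described here encode the machinery that loads peptides onto major histocompatibility complex (MHC) class I molecules, together with the immunoproteasome that cuts many of those peptides. They are the 10 genes H2-K1, H2-D1, B2m, Tap1, Tap2, Tapbp, Psmb8, Psmb9, Psmb10 and Nlrc5, named by symbol, out of the 27998 genes in the count tables, and all 10 were found there. Single-cell RNA sequencing (10x Genomics, 3' end) had been run on c-Kit-positive bone marrow cells of C57BL/6 mice, a fraction enriched for stem and progenitor cells. WT mice lacked Mx1-Cre, E2-KO mice carried Mx1-Cre and Ezh2 f/f, G12D mice carried Mx1-Cre and NRas G12D+/-, and G12D/E2-KO mice carried Mx1-Cre with both alleles. All 4 genotypes, WT included, received pIpC, a double-stranded RNA mimic. By the labels it was given at 8 to 12 weeks of age, and a younger age is stated elsewhere in the sources. Marrow was taken 2 weeks (T1), 2 months (T2) or 4 months (T3) later, and each of the 12 combinations of genotype and time is a single library.

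WT libraries therefore differ from the others in the presence of Cre as well as in the target alleles. Mx1-Cre is driven by an interferon-responsive promoter, and deletion depends on how many cells respond. The number of mice behind each library is not given in the sources used here, so p-values rest on the spread between libraries. In the main tests (edgeR) this spread is what remains after terms for genotype and time point, estimated from all 12 libraries together. Leaving out a library of another genotype can therefore change the p-value of a comparison. The 3 libraries of a genotype also differ in time after pIpC.

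In the class I pathway, proteasomes cut cytosolic proteins, the TAP transporter carries the peptides into the endoplasmic reticulum, and tapasin helps to fit them into a heavy chain paired with beta-2-microglobulin. H2-K1 and H2-D1 encode the classical heavy chains, B2m the shared light chain, Tap1 and Tap2 the subunits of the transporter, and Tapbp tapasin. Psmb8, Psmb9 and Psmb10 encode the inducible catalytic subunits that replace Psmb5, Psmb6 and Psmb7, and Nlrc5 encodes a transactivator of class I promoters. Interferons raise most of these genes, and Polycomb repressive complex 2, whose methyltransferase is Ezh2, is known to hold the pathway down in some tumours.

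Of the 10 genes, 7 lie on chromosome 17 (GRCm38/mm10, GENCODE M21), and Psmb9, Tap1, Psmb8 and Tap2 fall within 34335 bases there (34181987 to 34216321). H2-K1 (ENSMUSG00000061232) spans 33996017 to 34000347 on the minus strand, and H2-D1 (ENSMUSG00000073411) spans 35262730 to 35267499 on the plus strand. Psmb10 and Nlrc5 are on chromosome 8, and B2m (ENSMUSG00000060802) is at 122147686 to 122153083 on the plus strand of chromosome 2. The promoters of the 2 heavy chains, the light chain and Tap1 are shown, since these genes carry most of the comparisons that follow. Each is the 300 bases from 250 before to 50 after a RefSeq transcript start (GRCm38.p6), read 5' to 3' along the gene's strand at chr17:34000298-34000597 (minus), chr17:35262844-35263143 (plus), chr2:122147437-122147736 (plus) and chr17:34187306-34187605 (plus). Capitals mark every match to the motif letters listed after the sequences.
H2-K1: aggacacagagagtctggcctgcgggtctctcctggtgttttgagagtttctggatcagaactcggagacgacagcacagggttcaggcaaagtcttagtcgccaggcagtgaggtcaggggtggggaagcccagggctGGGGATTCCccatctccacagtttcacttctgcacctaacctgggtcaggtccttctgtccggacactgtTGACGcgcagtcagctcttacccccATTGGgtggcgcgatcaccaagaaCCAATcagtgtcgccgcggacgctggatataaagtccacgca
H2-D1: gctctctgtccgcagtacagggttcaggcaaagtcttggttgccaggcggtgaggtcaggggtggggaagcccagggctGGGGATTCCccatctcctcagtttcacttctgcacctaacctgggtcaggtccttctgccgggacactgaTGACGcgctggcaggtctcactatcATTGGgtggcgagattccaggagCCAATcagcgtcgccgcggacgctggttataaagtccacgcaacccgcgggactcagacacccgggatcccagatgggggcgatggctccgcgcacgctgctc
B2m: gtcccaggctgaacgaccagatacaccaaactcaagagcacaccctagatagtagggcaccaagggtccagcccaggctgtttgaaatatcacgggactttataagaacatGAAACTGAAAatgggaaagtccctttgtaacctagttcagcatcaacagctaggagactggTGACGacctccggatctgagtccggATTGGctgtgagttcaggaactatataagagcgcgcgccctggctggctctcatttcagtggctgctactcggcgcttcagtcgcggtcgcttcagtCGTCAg
Tap1: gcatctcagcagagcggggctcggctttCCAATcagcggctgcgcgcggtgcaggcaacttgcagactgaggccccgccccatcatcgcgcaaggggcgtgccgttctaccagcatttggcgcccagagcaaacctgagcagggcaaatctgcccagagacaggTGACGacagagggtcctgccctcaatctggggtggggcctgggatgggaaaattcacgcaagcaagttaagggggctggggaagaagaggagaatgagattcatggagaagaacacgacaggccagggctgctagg

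The motifs were the interferon-stimulated response element core (GAAA, any 2 bases, GAAA), the interferon-gamma site TTCNNNGAA, the NF-kB form GGGNNTTCC, the Y box CCAAT and the CRE-like core TGACG of the class I X2 box, each searched on both strands. Only these exact letters were counted, so a promoter without a match may still hold a variant of the same site. RefSeq promoters were matched for 8 of the 10 genes, without Tap2 and Nlrc5. The response element core occurred in B2m among them and in 3.44% of 32851 mouse promoters, the NF-kB form in H2-K1 and H2-D1 and in 5.82%, and the interferon-gamma site in Psmb8 and in 8.30%. CCAAT was in 6 of the 8 genes and in 37.4% of all promoters, and TGACG in 5 of the 8 and in 20.8%. In H2-K1, H2-D1 and B2m TGACG was followed after exactly 20 bases by ATTGG, the reverse complement of CCAAT, which held for 31 promoters of 27 genes in all (0.0944%). This spacing was noticed in the sequences before it was counted. The Psmb9 promoter window overlaps that of Tap1 on the opposite strand. The CCAAT and TGACG matches of these genes are the same bases, counted for each gene.

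Libraries held 12636998 to 23646292 UMIs (unique molecular identifiers, each 1 captured RNA molecule). Values are given as CPM, the UMIs of a gene per M (10 to the power of 6) UMIs of a library or of a library and cell class. The median cell had 3780.5 UMIs in E2-KO T3, the shallowest library, and up to 6975.5 in WT T2. Kit was detected in every library, at 43.6 to 80.8 CPM. Of the 5648 cells in the G12D T1 table, 2896 (51.3%) were also in the G12D/E2-KO T1 table. They make up 95.1% of the latter table, and 1494 of them had equal counts in every gene. Which library they came from is not given in the sources used here. For the analysis they were removed from G12D T1 and kept in G12D/E2-KO T1, so values of both libraries depend on this choice, and calls or directions that change with the tables as deposited are given beside the result. Ezh2 stood at 20.9 CPM in the shared cells, 86.3 in the other G12D T1 cells and 52.0 in G12D T1 as deposited. Ezh2 stood at 133, 103 and 103 CPM in WT and at 86.3, 103 and 81.7 in G12D (T1, T2, T3), against 27.7, 27.9 and 34.6 in E2-KO and 20.7, 25.3 and 22.4 in G12D/E2-KO. The targeted gene thus followed the labels (edgeR quasi-likelihood test, log2 change -1.92, adjusted p = 0.000356 for E2-KO, and -2.36, adjusted p = 0.000114 for G12D/E2-KO).

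Cells were assigned to classes by markers, with the pathway genes left out of the clustering. A class name stands for cells that resemble it. The 8 classes with at least 20 cells in each of the 12 libraries were stem and multipotent progenitors (HSC/MPP), megakaryocyte-erythroid progenitors (MEP), megakaryocytic cells (Meg), erythroid progenitors with early erythroid cells (EryP/early Ery), late erythroid cells (late Ery), early granulocytes and their granulocyte-macrophage progenitors (GMP/early GN), late granulocytes (late GN) and promonocytes (ProMo). Their shares differed widely between libraries, for late GN from 10.8% to 38.5% of cells, and B lymphoid cells made up 0% in G12D/E2-KO T3 and up to 13.6% elsewhere. In a sum over all cells, fewer cells of a type and less RNA per cell cannot be told apart, so the same comparisons were made within classes.

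Among these 8 classes of WT marrow, 7 of the 10 genes were highest in the stem and multipotent cells, and all 10 were lowest in late erythroid or late granulocytic cells. H2-K1 averaged 633 ± 16 CPM in HSC/MPP (SD, n = 3 libraries), 458 ± 2.0 in Meg and 429 ± 51 in MEP. It was 247 ± 12 CPM in ProMo and 240 ± 30 in GMP/early GN, then 127 ± 9.3 in EryP/early Ery, 93.0 ± 8.8 in late GN and 44.2 ± 16 in late Ery. The WT libraries of Meg and MEP overlapped, as did those of ProMo and GMP/early GN, and all other neighbours in the H2-K1 order were separate. From highest to lowest class the mean fell 14.3-fold for H2-K1, compared with 5.57-fold for H2-D1 (773 ± 75 to 139 ± 18 CPM) and 3.15-fold for B2m (2737 ± 152 to 869 ± 179 CPM). For B2m the order was HSC/MPP, MEP, Meg, ProMo, GMP/early GN, EryP/early Ery, late GN and late Ery, but the only neighbours without overlap were Meg with ProMo and ProMo with GMP/early GN.

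The transporter subunits differed in how steeply they fell. Tap2 was 82.1 ± 16 CPM in HSC/MPP, above every WT library of the next class, MEP (43.5 ± 9.0), and reached 4.54 ± 2.5 CPM in late Ery, an 18.1-fold range. Tap1 ranged from 47.3 ± 12 CPM in HSC/MPP to 11.1 ± 5.6 in late Ery, 4.27-fold, and each class overlapped the next in its order. Tapbp was the flattest of the 10, at 53.6 ± 2.1 CPM in GMP/early GN and 29.1 ± 2.3 in late Ery, 1.84-fold. Nlrc5 was 17.9 ± 2.5 CPM in HSC/MPP and 0.739 ± 0.17 in late GN, but its counts were low, and each class overlapped the next.

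Among the same classes the immunoproteasome subunits were high in promonocytes as well as in stem cells. Psmb8 stood at 553 ± 45 CPM in ProMo and 550 ± 75 in HSC/MPP, which overlapped, at 312 ± 15 in MEP and at 12.5 ± 1.6 in late Ery, a 44.2-fold range and the widest of the 10 genes. Psmb9 was highest of the 8 in HSC/MPP (214 ± 25 CPM), overlapping ProMo (195 ± 12 CPM), and fell 20.1-fold to late Ery. Psmb10 was highest in ProMo (148 ± 16 CPM), overlapping HSC/MPP (125 ± 14 CPM), and fell to 11.7 ± 8.8 in late Ery.

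**Figure D1:**
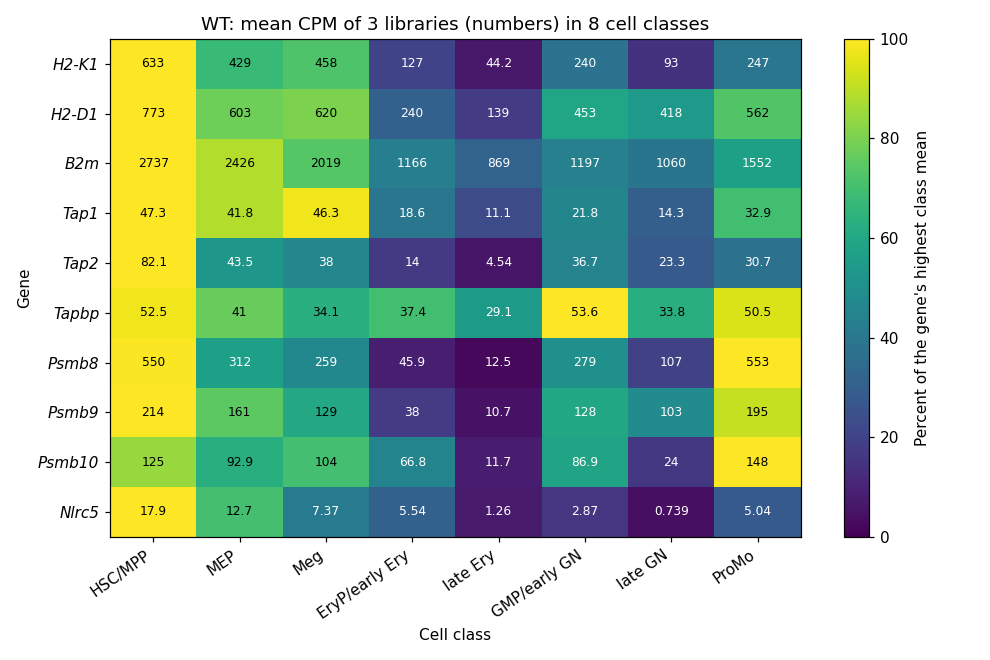
Mean CPM of each gene (row) in each cell class (column) over the 3 WT libraries, printed in the cells, with colour as percent of the gene's highest class. HSC/MPP is the highest class for 7 of the 10 genes, ProMo for Psmb8 and Psmb10, and GMP/early GN for Tapbp.

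The mean WT share of inducible transcripts in each catalytic pair was highest in HSC/MPP and lowest in late Ery, with different orders between. Of the UMIs of Psmb8 and its constitutive counterpart Psmb5, 75.7% were Psmb8 in WT HSC/MPP, 64.9% in MEP, 64.1% in ProMo and 12.7% in late Ery. For Psmb9 with Psmb6 the share was 41.9% in HSC/MPP, 38.0% in MEP, 37.1% in late GN, 35.5% in ProMo and 8.29% in late Ery. For Psmb10 with Psmb7 it was 47.3% in HSC/MPP, 46.1% in Meg, 45.6% in ProMo, 18.9% in late GN and 7.92% in late Ery. Over all 12 libraries the Psmb10 share in HSC/MPP (35.2% to 50.3%) overlapped that in Meg (31.25% to 51.4%) and ProMo (40.6% to 48.1%). A share of transcripts from 3' tags is not a share of assembled proteasomes.

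WT B lymphoid cells, counted in the 2 WT libraries with at least 20 of them, held more H2-D1 (1146 ± 33 CPM, SD, n = 2) and Psmb9 (329 ± 42 CPM) than the HSC/MPP mean. Their B2m (2937 ± 121 CPM), Psmb8 (602 ± 36) and Psmb10 (150 ± 23) also stood above that mean, and their H2-K1 (563 ± 80), Tap1 (40.6 ± 2.9) and Tap2 (41.9 ± 2.7) below it, with no test of these differences. Dendritic cells reached 20 cells in 2 G12D/E2-KO libraries, T1 and T2, where Psmb8 was 1113 ± 82 CPM and Tap1 199 ± 4.1 CPM (SD, n = 2).

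The first genotype question is whether loss of Ezh2 alone raised these genes over all cells. Tap1 was 23.6, 21.7 and 24.7 CPM in WT and 36.7, 29.0 and 40.4 in E2-KO (T1, T2, T3). H2-K1 was 220, 211 and 192 CPM in WT and 270, 264 and 246 in E2-KO, and B2m 1564, 1292 and 1333 against 1786, 1859 and 1584. For these 3 of the 10 genes every E2-KO library was above every WT library, where 15.8% of all 13143 tested genes were higher in this way. No gene of the 10 was lower throughout, against 9.94% of all genes. No member was called by the edgeR quasi-likelihood test (0 of 10, with 1.65% of all genes called). The log2 changes were 0.57 ± 0.31 (SE) for Tap1 (adjusted p = 0.401), 0.30 ± 0.19 for H2-K1 (adjusted p = 0.457) and 0.31 for B2m (adjusted p = 0.604). The median of the 10 was 0.15 (0.080 without WT T1, 0.093 without WT T3 and 0.27 without WT T2), with 6 above 0, beside 0.00 for all genes, and none had an unadjusted p under 0.05 (16.2% of all genes did). DESeq2 called none either. Fitted on the 6 libraries of these genotypes alone, Tap1 passed (0.56, adjusted p = 0.0421), as did 5.24% of all genes.

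With NRas G12D alone, all 10 genes had a log2 change above 0, 7 of 10 without G12D T3. Psmb8 was 216, 240 and 183 CPM in WT and 270, 258 and 380 in G12D, and Tapbp was 43.1, 43.0 and 38.5 against 48.0, 45.1 and 67.7. Every G12D library lay above every WT library for H2-D1, Tap1, Tapbp, Psmb8 and Psmb9 (5 of 10, beside 7.28% of all genes), and no gene of the 10 lay below (9.43% of all genes). In each of these 5 the T3 library stood far above the other G12D libraries. The edgeR quasi-likelihood test called 0 of 10 (0.107% of all genes), and DESeq2 also called none. The median log2 change was 0.40, beside -0.01 for all genes. Psmb8 was the 1 gene with an unadjusted p under 0.05 (0.56 ± 0.22, adjusted p = 0.383), where 11.8% of all genes had one. Without G12D T3 the median was 0.079, and Tap2 (-0.034), Psmb10 (-0.11) and Nlrc5 (-0.42) turned below 0. With the same class make-up in every library Tap2 (-0.016) and Psmb10 (-0.097) did, and 8 of 10 were above 0 with a median of 0.24.

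In G12D/E2-KO against WT, 8 of the 10 genes were above 0, and 4 of 10 without G12D/E2-KO T1. Tap1 was 43.1, 44.7 and 30.5 CPM in G12D/E2-KO, and Tap2, its partner, was 31.1, 36.8 and 36.9 against 26.6, 29.1 and 25.4 in WT. Tap1, Tap2 and H2-K1 were higher in every G12D/E2-KO library than in every WT library (3 of 10, beside 14.8% of all genes). Psmb10 was lower in every one, at 66.4, 68.5 and 60.4 CPM against 76.0, 80.9 and 70.6 (1 of 10, beside 10.3%). The edgeR quasi-likelihood test called none of the 10 (5.71% of all genes), with Tap1 nearest (log2 change 0.76 ± 0.31, adjusted p = 0.163) and the only one with an unadjusted p under 0.05 (26.3% of all genes). DESeq2 also called 0 (Tap1 adjusted p = 0.0716). The members' median was 0.28, beside 0.01 for all genes. Without G12D/E2-KO T3, Tap1 passed (1.13, adjusted p = 0.0117), 10.5% of all genes did, and 9 of 10 were above 0 with a median of 0.42. G12D/E2-KO T3 was the lowest library of its genotype for Tap1, so leaving it out raises this difference by construction. Without G12D/E2-KO T1 the median was -0.048, and B2m (-0.055), Tapbp (-0.18), Psmb8 (-0.060) and Psmb9 (-0.040) turned below 0. With the same class make-up in every library Tapbp (-0.024) and Psmb8 (-0.22) did, and 6 of 10 were above 0 with a median of 0.080. Within classes the H2-K1 change against WT was above 0 in 5 of 8. For H2-K1 every G12D/E2-KO library was above every WT library in late GN, as for 18.5% of all genes there. In HSC/MPP and Meg every G12D/E2-KO library was below every WT library for H2-K1 (10.3% and 8.13% of all genes).

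With Ezh2 removed on the NRas G12D background, the direction depended on the T3 libraries. Against G12D, 3 of 10 genes were above 0 and the median log2 change was -0.24 (0.00 for all genes). With the tables as deposited, 2 of 10 were above 0 with a median of -0.32, and Tap1 was at -0.027 in place of 0.087. Without G12D T3, 6 of 10 were above 0 with a median of 0.17, and H2-K1 (0.27), B2m (0.16) and Psmb9 (0.17) changed sign. Without G12D/E2-KO T3, 6 of 10 were also above 0 (median 0.064). With both T3 libraries left out, a fit added after seeing the data, 7 of 10 were above 0 (median 0.30) and Tap1 was called higher (0.72, adjusted p = 0.0435, with 1.87% of all genes called). G12D T3 was the highest library for all 10 genes, so leaving it out raises this difference by construction. No gene was apart in all libraries, beside 10.2% of all genes higher and 3.68% lower. The edgeR test called 0 of 10 (1.42% of all genes), and 1, Psmb10, had an unadjusted p under 0.05 (14.9% of all genes). The interaction, the change in G12D/E2-KO minus the sum of both single changes, was below 0 for all 10 genes with a median of -0.34, and the edgeR test called 0 of 10 (0.0913% of all genes), with 0 at an unadjusted p under 0.05 (3.73%). Without G12D T3, 5 of 10 interaction values were above 0 (median 0.011). Without G12D/E2-KO T3 it was 3 of 10 (median -0.12), and with both left out 7 of 10 (median 0.092). DESeq2 called 0 in both. All comparisons against WT share the WT libraries, and the interaction uses all 12.

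No gene passed between time points. From T1 to T2, 1 of 10 log2 changes was above 0 with a median of -0.15, and from T1 to T3, 4 of 10 were, with a median of -0.12 (-0.33 to 0.32). The edgeR quasi-likelihood test called 0 of 10 in each, with 0 at an unadjusted p under 0.05 (4.72% and 13% of all genes), DESeq2 called 0, and 0% of all genes were called.

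**Figure D2:**
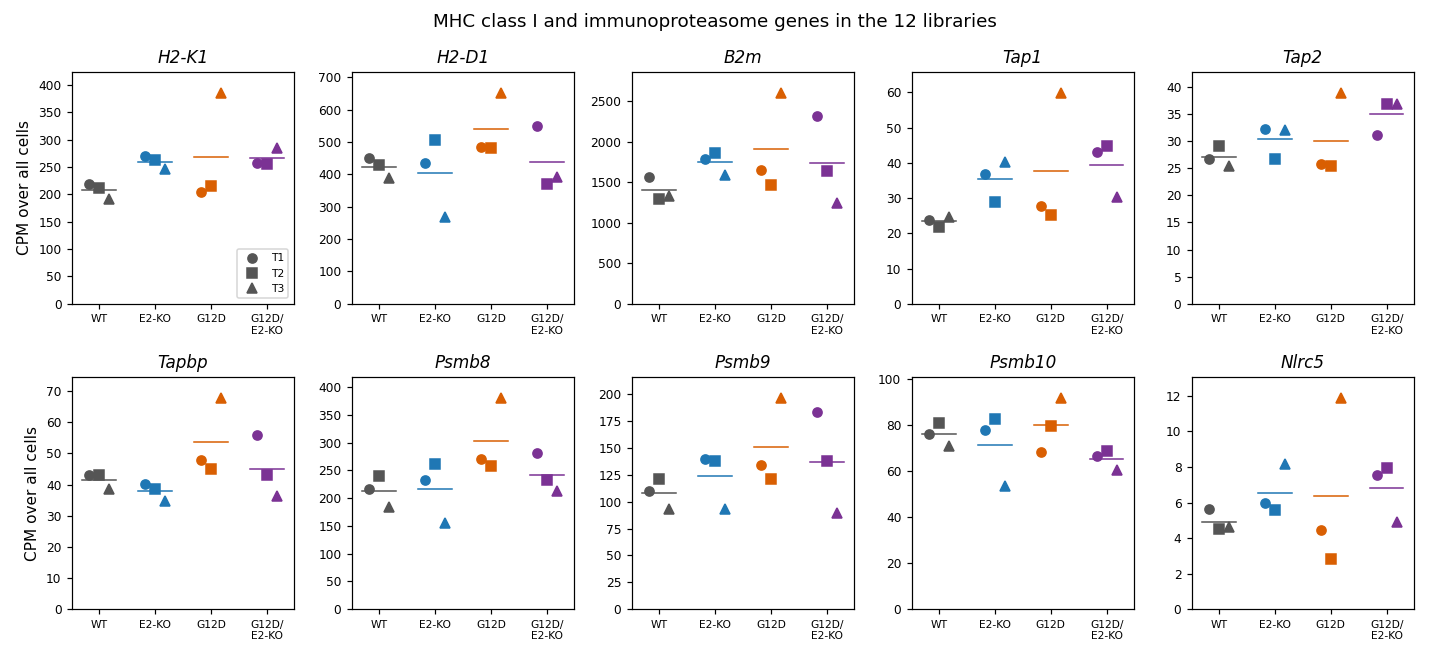
CPM of each gene over all cells (y axis, from 0) in the 12 libraries, by genotype (x axis), with circles for T1, squares for T2, triangles for T3 and a line at the mean of 3 libraries. The G12D T3 triangle is the highest point in all 10 panels, and Tap1, H2-K1 and B2m of E2-KO lie above WT.

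Within the 8 classes, 76 pairs of gene and class could be tested, since Nlrc5 was too low in MEP, Meg and late Ery and Tap2 in late Ery. The edgeR quasi-likelihood test called 0 of 76 for E2-KO (1.31% of all class and gene pairs) with 6 at an unadjusted p under 0.05 (12.6% of all pairs), and 0 of 76 for G12D (0.135%) with 12 (5.08%). It called 1 of 76 for G12D/E2-KO against WT (2.24%), 2 of 76 for G12D/E2-KO against G12D (1.61%) and 0 for the interaction (0.0619%), with 14, 17 and 9 at an unadjusted p under 0.05 (15.7%, 13.1% and 3.93%). As shares of the 76 these were 7.89%, 15.8%, 18.4%, 22.4% and 11.8%, below the share of all pairs in E2-KO and above it in the others, least so in G12D/E2-KO against WT. The G12D changes were above 0 in 66 of 76 pairs with a median of 0.30, the E2-KO changes in 47 with a median of 0.10, and the G12D/E2-KO changes against WT in 40 with a median of 0.03. Against G12D, 19 of 76 G12D/E2-KO changes were above 0, and 12 of 76 with the tables as deposited. Without G12D T3 the G12D changes were above 0 in 38 of 75 pairs (median 0.0060) and those against G12D in 35 of 75. Without G12D/E2-KO T1 the G12D/E2-KO changes against WT were above 0 in 25 of 76, and without G12D/E2-KO T3 in 55 of 76 (median 0.24). DESeq2 called 0, 0, 2, 2 and 0 of 76 in the same order, and the share of all pairs that DESeq2 called is not given here. Against G12D these were H2-D1 in ProMo and Psmb8 in GMP/early GN (-0.61, adjusted p = 0.0466), where edgeR gave adjusted p = 0.0517 for Psmb8, passed it with no filter on low counts (adjusted p = 0.0138) and in 4 of 12 fits without 1 library. GMP/early GN spans several clusters, and WT Psmb8 was 175 CPM in cluster 13, beside 312 and 370 in clusters 2 and 20. Cluster 13 held 42.2%, 39.2% and 27.4% of the class in G12D/E2-KO and 23.7%, 37.0% and 23.1% in G12D (T1, T2, T3). The part of this make-up was not tested. Without G12D/E2-KO T3, the library with the lowest interferon genes (given further on), 10 of 76 were called in G12D/E2-KO against WT (3.79% of all pairs) and 3 of 76 in E2-KO (2.12%). These 10 were Tap1 in 5 classes, B2m in GMP/early GN and late GN, H2-K1 and Nlrc5 in late GN, and Psmb10 in EryP/early Ery. G12D/E2-KO T3 was the lowest library for B2m over all cells and the lowest of its genotype for Tap1. Leaving it out raises such differences from WT by construction. Against G12D, 2 of 76 were called without G12D/E2-KO T3 (2.17%), Tap1 higher in late GN (1.12, adjusted p = 0.0013) and Psmb10 lower in EryP/early Ery (-0.75, adjusted p = 0.0378), while neither promonocyte call described further on was kept. Without G12D/E2-KO T1, 5 of 76 were called in G12D/E2-KO against G12D (1.65%), while none was without G12D T2, without G12D T3 or without G12D/E2-KO T2.

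Psmb10, the inducible counterpart of Psmb7, was the gene that passed in G12D/E2-KO against WT. In EryP/early Ery it was 64.8, 63.9 and 71.7 CPM in WT and 40.8, 29.0 and 48.4 in G12D/E2-KO, from 102, 88 and 135 UMIs. All 3 G12D/E2-KO libraries lay below all other libraries but 1 of G12D (47.7 CPM at T1). It fell by 0.71 on the log2 scale (edgeR SE 0.17, adjusted p = 0.0292). In E2-KO it stood at 58.6, 64.3 and 52.2 CPM there. The Psmb10 change was below 0 in 8 of 8 classes for G12D/E2-KO, from -0.75 to -0.27, and in 8 of 8 for E2-KO. G12D/E2-KO lay below WT in every library in 5 of 8 classes (HSC/MPP, MEP, Meg, EryP/early Ery and ProMo, where 10.3%, 12.5%, 8.13%, 13.7% and 7.71% of all genes did). The EryP/early Ery class spans several clusters, and the largest differed between libraries (clusters 5, 10, 11 and 12). WT Psmb10 was 25.6 CPM in cluster 10, beside 70.7, 69.3 and 94.2 in clusters 5, 11 and 12. Cluster 10 held 21.3%, 31.7% and 16.2% of the class in WT (T1, T2, T3). In G12D/E2-KO it held 25.1%, 29.8% and 8.77%. The part of this make-up in the Psmb10 change was not tested. The call was kept in 7 of 12 fits that each left out 1 library. It was lost without WT T1 (adjusted p = 0.126), WT T2 (0.0763), WT T3 (0.155), E2-KO T1 (0.0506) or G12D/E2-KO T2 (0.125).

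In promonocytes, which formed a single cluster, H2-D1 and Psmb8 were lower in G12D/E2-KO than in G12D. H2-D1 was 616, 671 and 762 CPM in G12D and 500, 371 and 439 in G12D/E2-KO, with 544, 535 and 607 in WT and 436, 553 and 330 in E2-KO. It fell by 0.74 on the log2 scale against G12D (edgeR SE 0.17, adjusted p = 0.0144). Psmb8 was 516, 623 and 659 CPM in G12D and 479, 383 and 416 in G12D/E2-KO, with 502, 589 and 568 in WT and 479, 555 and 339 in E2-KO. It fell by 0.59 (edgeR SE 0.16, adjusted p = 0.0498). Both genes were apart in every library of that pair, where 5.21% of all genes were lower throughout. With the cells as deposited neither was called (H2-D1 -0.69, adjusted p = 0.0949, and Psmb8 -0.56, adjusted p = 0.173). With G12D T3 and G12D/E2-KO T3 both left out neither was called (adjusted p = 0.119 and 0.210). The H2-D1 call held in 8 of 12 fits without 1 library and was lost without G12D T2 (adjusted p = 0.0713), G12D T3 (0.134), G12D/E2-KO T2 (0.109) or G12D/E2-KO T3 (0.0667). The Psmb8 call held in 3 of 12, without WT T3, E2-KO T3 or G12D/E2-KO T1, and its adjusted p was 0.0537 to 0.294 in the others. DESeq2 did not call it (adjusted p = 0.0716).

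Tap1 had a log2 change above 0 in most classes of every mutant genotype, with no class called by the edgeR test over all 12 libraries with the low-count filter. In HSC/MPP it was 57.0, 33.3 and 51.6 CPM in WT, 76.2, 69.7 and 129 in E2-KO, 46.2, 83.2 and 120 in G12D, and 76.2, 85.6 and 67.2 in G12D/E2-KO. E2-KO and G12D/E2-KO lay above WT in every library, as 5.49% and 5.15% of all genes did in this class, and G12D overlapped WT. The edgeR log2 changes were 0.999 ± 0.28 in E2-KO (adjusted p = 0.252), 0.85 in G12D (adjusted p = 0.540) and 0.89 in G12D/E2-KO (adjusted p = 0.159). With no filter on low counts E2-KO and G12D/E2-KO passed (adjusted p = 0.0162 and 0.0157), and without G12D/E2-KO T3 also (adjusted p = 0.0434 and 0.0112). In MEP, Tap1 was 39.6, 48.7 and 37.0 CPM in WT and 85.1, 56.2 and 129 in E2-KO (1.13 ± 0.35, adjusted p = 0.219). Without G12D/E2-KO T3, Tap1 in E2-KO kept a change of 1.13 there with a smaller SE (0.28, edgeR adjusted p = 0.0290). In late GN it was 12.1, 13.4 and 17.3 CPM in WT and 33.4, 44.3 and 20.9 in G12D/E2-KO (1.17 ± 0.39, adjusted p = 0.136), where DESeq2 called it (adjusted p = 0.0370), as did edgeR with no filter on low counts (adjusted p = 4.1e-05), without G12D T3 (adjusted p = 0.0295) and without G12D/E2-KO T3 (adjusted p = 1.7e-05). G12D/E2-KO T3 was the lowest library of its genotype for Tap1 in HSC/MPP and late GN. Leaving it out raises those G12D/E2-KO differences by construction. The Tap1 change was above 0 in 7 of 8 classes for each single mutant and in 8 of 8 for G12D/E2-KO. The classes share the same libraries, so these counts are not independent. Nlrc5 in late GN had the largest value against WT, 2.07 ± 0.88 in G12D/E2-KO (adjusted p = 0.201), from 3, 3 and 3 UMIs in WT and 17, 12 and 2 in G12D/E2-KO. In B lymphoid cells, which were too few in some libraries to test, Tap1 averaged 40.6 ± 2.9 CPM in WT (SD, n = 2), 65.9 ± 6.4 in E2-KO (n = 3), 81.8 ± 32 in G12D (n = 3) and 87.6 ± 17 in G12D/E2-KO (n = 2).

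Whether a genotype effect differed between a class and the mean of the other classes was tested with limma for 9 of the genes. None was called in any of the 8 classes and 3 contrasts against WT (0.269% of all tests were), and 28 of 216 tests of these genes had an unadjusted p under 0.05 (13%, beside 7.32% of all tests). Nearest were Psmb8 in ProMo for G12D/E2-KO (difference -0.35, adjusted p = 0.0556) and H2-D1 there (-0.34, adjusted p = 0.0756).

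**Figure D3:**
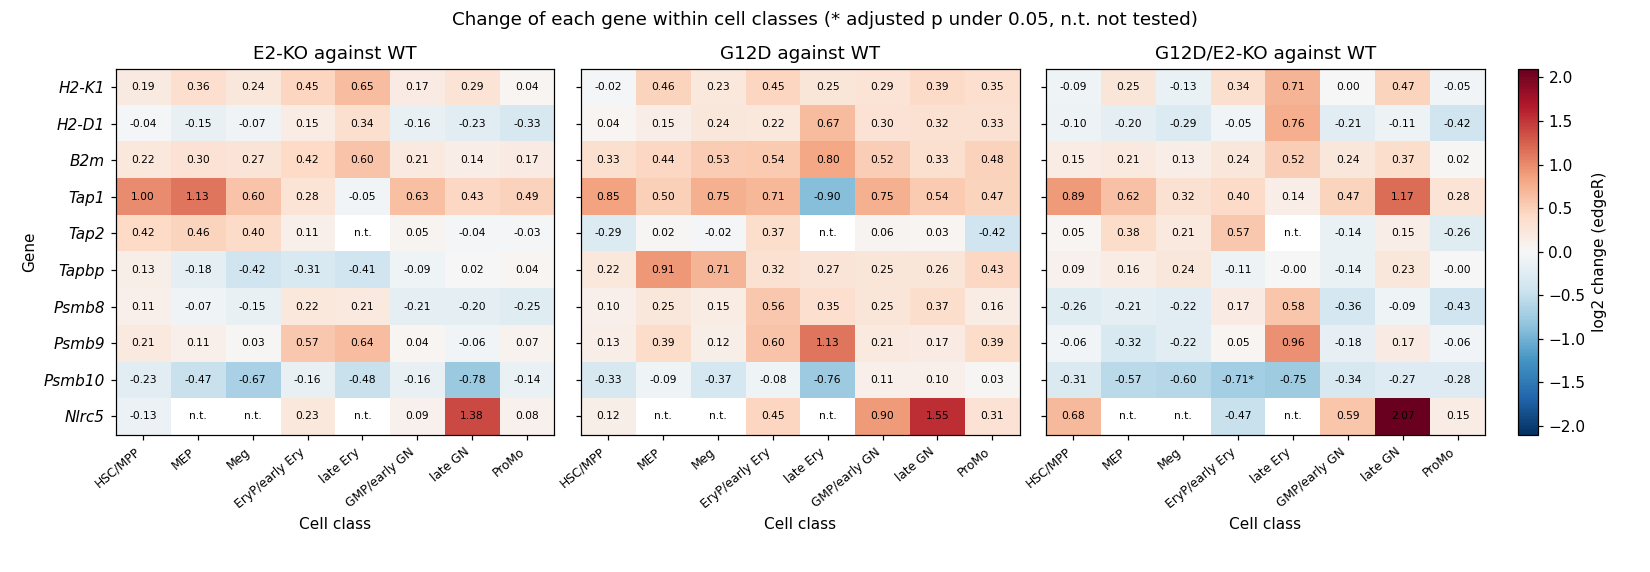
edgeR log2 change against WT of each gene (row) in each class (column) for the 3 mutant genotypes, printed in the cells and coloured from blue (lower) to red (higher). Psmb10 in EryP/early Ery of G12D/E2-KO is the single change past adjusted p 0.05, and n.t. marks pairs too low to test.

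The inducible share of the catalytic pairs was compared over all cells with an exact permutation test of 3 against 3 libraries, two-sided, whose smallest possible p is 0.1. The Psmb8 share was 51.4%, 49.9% and 51.3% in WT and 62.5%, 55.4% and 68.4% in G12D (exact p = 0.1), and 61.2%, 56.3% and 54.1% in G12D/E2-KO (exact p = 0.1). E2-KO overlapped WT at 49.3%, 51.5% and 49.0% (exact p = 0.4). The Psmb8 share was above WT in the mean of 8 of 8 classes in G12D, by 4.58 to 11.8 percentage points. In G12D/E2-KO it was above in 4 of 8 (3 to 6 with 1 library left out). The Psmb9 share was higher in every library of each mutant genotype than in WT (28.2%, 29.6% and 28.9%), at 32.5%, 30.4% and 32.7% in E2-KO, 38.3%, 31.5% and 45.4% in G12D, and 45.0%, 38.2% and 30.7% in G12D/E2-KO (exact p = 0.1 each), and its mean was above WT in 8 of 8 classes for each genotype (7 or 8 with 1 library left out), with every library above WT in 5 of 8 classes for E2-KO and G12D and in 1 of 8 for G12D/E2-KO. The Psmb10 share overlapped WT in each genotype over all cells, and within classes its mean was below WT in 8 of 8 for E2-KO and for G12D/E2-KO (6 to 8 with 1 library left out), with every library apart from WT in 3 and 1 of them. The classes share the same libraries, so these counts of classes are not independent, and no background of other gene pairs is given.

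Over all cells, all 10 genes were highest in G12D T3, and 5 of them also stood out in G12D/E2-KO T1. These 2 libraries had the highest sums of interferon response genes. A list of 25 interferon response genes, of which 24 were in the tables and none is among the 10, summed to 692, 474 and 585 CPM in WT, 624, 535 and 738 in E2-KO, 845, 379 and 2477 in G12D, and 2822, 892 and 282 in G12D/E2-KO. G12D T3 and G12D/E2-KO T1 thus stood apart from the other 10 libraries. G12D T3 had the highest value of all 12 libraries for 10 of the 10 genes, where 4.53% of all 13143 tested genes were highest, among them B2m at 2598 CPM, Tap1 at 59.8 and Nlrc5 at 11.9. Both libraries were above all other 10 for H2-D1, B2m, Tapbp, Psmb8 and Psmb9 (5 of 10, beside 2.40% of all genes). In G12D/E2-KO T1 H2-K1, Tap1, Tap2 and Nlrc5 lay within the range of the other 10, and Psmb10 (66.4 CPM) was below their median of 73.3. Within classes G12D T3 was the highest library in 49 of 80 pairs of gene and class, 48 of the 76 that could be tested, beside 6.48% of all class and gene pairs. Among these were 8 of 8 classes for B2m and Psmb9, 7 of 8 for H2-K1 and Tapbp and 5 of 8 for H2-D1 and Nlrc5. For Tap1 it was 4 of 8, for Psmb8 3 of 8, and for Tap2 and Psmb10 1 of 8 each. Tap2 over all cells was 38.9 CPM in G12D T3 and 36.9 in the next library, G12D/E2-KO T3.

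G12D/E2-KO covered the widest interferon range of the genotypes. Ifi27l2a, an interferon-induced gene, was 1038 CPM at T1, 264 at T2 and 2.72 at T3, and Irf7, an interferon regulatory factor, 51.8, 9.16 and 0.972. B2m in the same libraries was 2318, 1643 and 1237 CPM, and Psmb9 183, 138 and 89.5, while H2-K1 was 258, 255 and 285. At T3 the summed list was the lowest of all libraries in 7 of 8 classes. Because 2 libraries form a separate group, no correlation over all 12 is given. Over the other 10, Pearson's r between B2m and the list was 0.61 (permutation p = 0.0586) and Spearman's rho 0.56 (permutation p = 0.0968), and r was 0.37 without G12D/E2-KO T3 and T2, the libraries farthest from the median. For Nlrc5 r was 0.59 (permutation p = 0.0750) and rho 0.52 (permutation p = 0.132), and 0.65 without those libraries. Of 13 genes related to the list (the 10 with Psmb5, Psmb6 and Psmb7), none passed after Benjamini-Hochberg adjustment (B2m and Nlrc5 permutation p adjusted to 0.487). The part of the interferon level in the genotype differences was not tested.

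**Figure D4:**
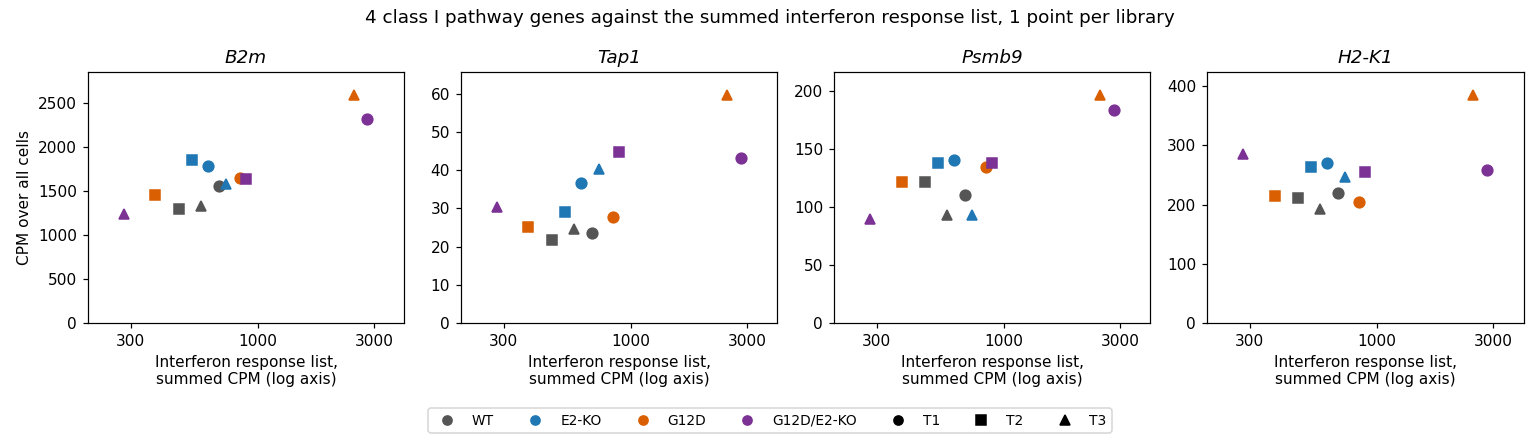
CPM over all cells of B2m, Tap1, Psmb9 and H2-K1 (y axes, from 0) against the summed CPM of the interferon response list (log axis), 1 point per library, with colour for genotype and shape for time point. The 2 points at the far right, G12D T3 and G12D/E2-KO T1, are the highest for B2m and Psmb9, while for H2-K1 G12D T3 alone is above the rest.

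Over all cells the balance of the heavy chains was apart from WT in E2-KO, and within classes mostly not. The ratio of H2-K1 to H2-D1 UMIs over all cells was 0.489, 0.494 and 0.492 in WT and 0.618, 0.522 and 0.914 in E2-KO. All E2-KO libraries were above WT (exact permutation p = 0.1, two-sided, the smallest that 3 against 3 allows). In G12D it was 0.423, 0.445 and 0.591, and in G12D/E2-KO 0.468, 0.690 and 0.727, which both overlapped WT (exact permutation p = 1 and 0.4). Among the 8 classes the mean WT ratio ran from 0.222 in late GN to 0.824 in HSC/MPP, so the all-cell ratio also depends on class shares. The part of class make-up in it was not tested. Within classes, E2-KO was above WT in every library in 1 of 8 (late GN, 0.240 to 0.512 against 0.214 to 0.232) and overlapped it in the other 7. G12D/E2-KO was above WT in every library in 2 of 8, late GN (0.274 to 0.391) and EryP/early Ery (0.629 to 0.864 against 0.504 to 0.563), and G12D in 0 of 8. The mean ratio was above WT in 8 of 8 classes for E2-KO and for G12D/E2-KO and in 5 of 8 for G12D, all from the same libraries. In E2-KO T3 the ratio was the highest of the 12 libraries in 8 of 8 classes, H2-D1 was lowest there in 6 of 8 and Psmb8 in 5 of 8. H2-D1 over all cells was 437, 505 and 269 CPM in E2-KO against 450, 428 and 390 in WT (edgeR log2 change -0.11, adjusted p = 0.857). E2-KO T3 was also the shallowest library, and the part of depth was not tested. The heavy chain genes are close paralogs, so the split of reads between them, and with other H2 genes, depends on the counting of shared sequence.

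**Figure D5:**
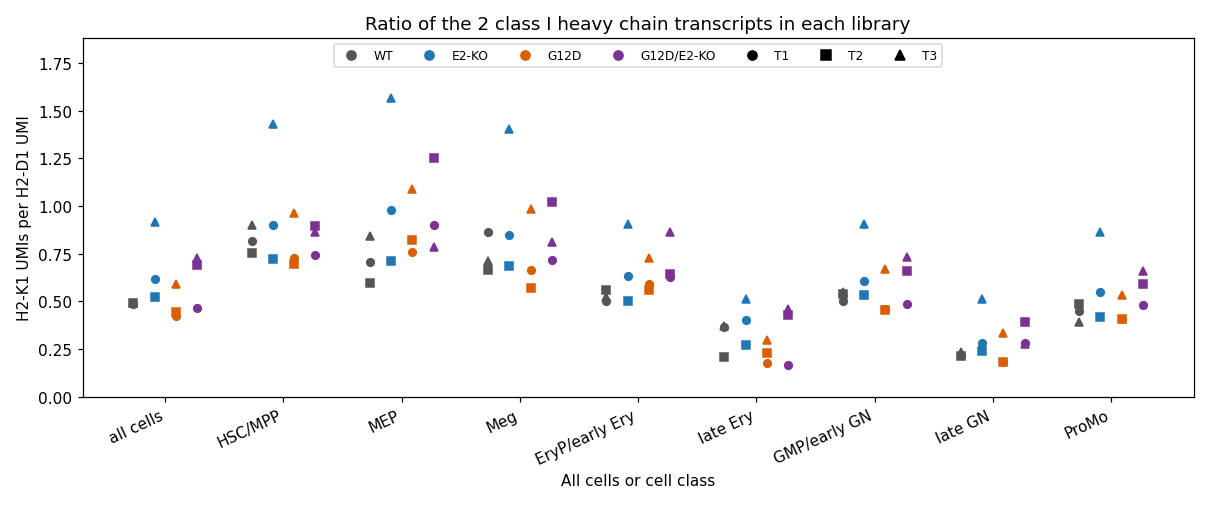
H2-K1 UMIs per H2-D1 UMI (y axis, from 0) in each library over all cells and in the 8 classes, with colour for genotype and shape for time point. The 3 WT points over all cells lie between 0.489 and 0.494, and the blue triangle, E2-KO T3, is the highest point in every column.

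Other genes of the pathway were followed through 8 lists of 110 genes. Of these 110, 2 were called by the edgeR quasi-likelihood test in a comparison of genotypes over all cells, Ezh2 itself and Tnf, a cytokine gene, which fell by 1.18 on the log2 scale in E2-KO (adjusted p = 0.0451). In the list of other loading and peptide supply genes, 0 of 8 were called, with medians of 0.07, 0.25 and 0.04 for E2-KO, G12D and G12D/E2-KO against WT. Erap1, which trims peptides in the endoplasmic reticulum, changed by 0.50 in E2-KO (adjusted p = 0.181), and Tapbpl, a tapasin relative, by -0.71 in G12D/E2-KO against G12D (adjusted p = 0.108). The constitutive subunits were all below 0 in G12D/E2-KO against WT (0 of 3 called, median -0.35), with Psmb7 at -0.41 (adjusted p = 0.0802) and Psmb6 at -0.35 (adjusted p = 0.125).

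The nonclassical class I genes, which share the B2m light chain, were above 0 for 9 of 12 in E2-KO and for 11 of 12 in both other mutants, with medians of 0.25, 0.65 and 0.47. None was called, and H2-Q6 stood at 1.12 in G12D/E2-KO (adjusted p = 0.0755). The interferon response list had medians of 0.33, 0.95 and 0.70 in the same comparisons, with 0 of 24 called, and Ifi27l2a stood at 3.44 in G12D/E2-KO (adjusted p = 0.277) and Iigp1, an interferon-inducible GTPase, at 2.21 in G12D (adjusted p = 0.430). Among the receptors and signalling genes Socs1, a feedback inhibitor, was at 0.78 (adjusted p = 0.447) and Ifngr2, a chain of the interferon-gamma receptor, at 0.65 (adjusted p = 0.237) in G12D, again with 0 of 10 called. Of 15 regulators of class I genes none was called, with medians of -0.05, 0.04 and 0.21, and Irf8, an interferon regulatory factor of myeloid cells, was at 0.84 in G12D (adjusted p = 0.310). The interaction values of Ciita, the class II transactivator, and Fcgrt, the neonatal Fc receptor, were 2.62 and 1.24 (adjusted p = 1 each). Of 34 other genes of the MHC region, Tnf was the 1 called, with list medians of -0.14, 0.05 and -0.02, and of the 4 Polycomb repressive complex 2 genes Ezh2 was.

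The genes whose pattern over the 96 sums of library and class was most like the mean of the 10 were, among 2253 genes at 50 CPM or more, Zfp422 (Pearson's r = 0.918 of log2 CPM), Psme1, which encodes a proteasome activator subunit (0.915), Pts (0.911), H2-DMa, which encodes a class II peptide exchange chain (0.909), and Foxp1 (0.906). Among the 10 themselves, H2-K1 followed the mean of the other 9 most closely (r = 0.94) and Tapbp least (r = 0.58). The sums share libraries and classes and are not independent.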

How the data were processed

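The deposited tables hold raw UMI counts per gene and cell. The authors aligned each library to mm10 with Cell Ranger and removed cells with over 10% mitochondrial UMIs and Scrublet doublets before deposit, and no further doublet caller was run. Cell names carry no barcodes, so shared cells were found by content (cosine above 0.9 of log counts over 8000 genes, after leaving out the 300 most abundant). WT cells were clustered (scanpy 1.11.5, Leiden resolution 2, 1966 variable genes, 29 clusters, 27 named from marker lists into 14 classes, the 2 others unnamed), and other cells took the class of the nearest WT cell. In a check across WT libraries 97.0% of cells received the same class. Counts summed per library, or per library and class, were tested with edgeR 4.0.16 (TMM, filterByExpr, robust quasi-likelihood, two-sided) with genotype and time point as terms and Benjamini-Hochberg adjustment over all genes tested (called: adjusted p under 0.05). The SE printed with an edgeR change is not an output of edgeR. It is the absolute log2 change divided by the square root of the F statistic of the test. DESeq2 1.42.0 was the alternative, and limma 3.58.1 tested class differences (R 4.3.3, Python 3.11.15). The code was tested on simulated data.

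The genes named are the 10 members in each comparison and, of each other list, up to 4 genes past the threshold with the largest change or otherwise the 2 with the largest change. Genes named with the members' calls under other settings were chosen after their values were seen. The 10 genes and the lists were chosen with earlier results of these data known. Other alternatives were DESeq2 size factors, no filter on low counts, no time point term, only the genotypes compared, the tables as deposited, equal class make-up, class by majority of 15 neighbours, a prior count of 5 and leaving out libraries. A correlation is over log2(CPM + 1) sums for similar patterns. Same-time libraries of different genotypes deviated together in part (18 pairs, r = -0.28 to 0.52, over 0.1 in 12).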

Additional observations from a re-analysis of the deposited data

Results flagged for a closer look

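4 of the 27 combinations of gene and contrast against WT with at least 10 UMIs per library in 2 or more classes moved in opposite directions in a pair of classes at all 3 time points (14.8%), beside 12.6% of such combinations over all genes. With at least 10 UMIs per library in all 8 classes it was 1 of 9 (11.1%), beside 24% over all genes. For H2-K1 in G12D/E2-KO the mean log2 difference in CPM was 0.57 in late GN and -0.16 in Meg. For Tap2 in G12D/E2-KO it was 0.50 in EryP/early Ery and -0.20 in ProMo. For Tapbp in E2-KO it was 0.15 in late GN and -0.34 in EryP/early Ery, and for Psmb10 in G12D 0.17 in late GN and -0.44 in Meg. The difference between the classes of each pair was not tested. The limma test of each class against the mean of the others called none of these 4 combinations in any class, and the lowest adjusted p among the classes named here was 0.388 (Tap2 in EryP/early Ery of G12D/E2-KO).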

How the results depend on the processing

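Over all cells the count of genes called stayed at 0 of 10 in G12D against WT, the interaction and both time contrasts under each alternative run for them (edgeR, DESeq2, and limma for equal class make-up). The fits without the time term and the added fit were not run for the time contrasts, nor the fits of only the genotypes compared for these or the interaction. With only the genotypes compared it was 1 in E2-KO (Tap1). The fit without G12D T3 and G12D/E2-KO T3 was added after seeing the data and gave 1 in E2-KO, 1 in G12D/E2-KO against WT and 1 against G12D, each time Tap1 (0.57, 1.04 and 0.72, adjusted p = 0.0333, 0.00314 and 0.0435). The share of all genes called in this fit is not given for the comparisons with WT. Whether Tap1 stands out from other genes there was not judged. Leaving out 1 library at a time gave 0 to 1 in G12D/E2-KO against WT and 0 otherwise. Within classes, no filter on low counts gave 4, 3, 4, 4 and 2 of 80 for E2-KO, G12D, G12D/E2-KO against WT, against G12D and the interaction (1.55%, 0.402%, 2.52%, 1.89% and 0.242% of all pairs). DESeq2 gave 2 for G12D/E2-KO against WT (share of all pairs not given), and the cells as deposited gave 0 against G12D. The added fit gave 2 in E2-KO, 8 in G12D/E2-KO against WT and 3 against G12D (2.13%, 3.78% and 1.68%). These 3 were higher in late GN (B2m, H2-K1 and Tap1), and both lower calls in ProMo were lost. This fit leaves out the highest G12D library, which raises differences from G12D by construction. It also leaves out the G12D/E2-KO library lowest for B2m and Tap1 over all cells, which raises those differences from WT. Leaving out 1 library gave 0 to 3, 0, 0 to 10, 0 to 5 and 0, and the genes called could differ at an equal count. The time point as a replicate block changed 1 count: without it 1 gene was called within classes against G12D, Psmb8 in ProMo being lost (-0.58, adjusted p = 0.0747).

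Directions over all cells turned as follows, with no call for the values given. With equal class make-up, G12D gave -0.016 for Tap2 and -0.097 for Psmb10, G12D/E2-KO against WT -0.024 for Tapbp and -0.22 for Psmb8, and against G12D -0.039 for Tap1 and -0.028 for Nlrc5. H2-D1 in G12D/E2-KO against WT was 0.0016 with DESeq2 and with its size factors in edgeR, and 0.020 without the block. Tap1 against G12D was -0.027 as deposited and -0.0013 without the block. In the added fit G12D gave -0.013 for Tap2, -0.094 for Psmb10 and -0.30 for Nlrc5, H2-D1 in G12D/E2-KO against WT was 0.011, and against G12D H2-K1 was 0.28, B2m 0.32, Tapbp 0.071 and Psmb9 0.31. The correlation of Tap2 with the interferon list was 0.020 with equal class make-up. Leaving out 1 library gave -0.36 to 0.090 for H2-D1 and -0.17 to 0.13 for Psmb8 in E2-KO. In G12D it gave -0.034 to 0.29 for Tap2, -0.11 to 0.25 for Psmb10 and -0.42 to 0.70 for Nlrc5. In G12D/E2-KO against WT it gave -0.26 to 0.13 for H2-D1, -0.055 to 0.59 for B2m, -0.18 to 0.31 for Tapbp, -0.060 to 0.27 for Psmb8 and -0.040 to 0.59 for Psmb9. Against G12D it gave -0.26 to 0.27 for H2-K1, -0.54 to 0.16 for B2m, -0.17 to 0.51 for Tap1, -0.59 to 0.17 for Psmb9 and -0.24 to 0.86 for Nlrc5. Against G12D, Tapbp kept its direction when 1 library was left out (-0.60 to -0.048), as did Nlrc5 in the added fit (1.07). The cause of these shifts was not tested, and low counts limit Nlrc5.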
